A study of Mus musculus with 10 samples.

Results

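The genes described here encode the proteins of the cytosolic ribosome in cultured mouse molars. They were chosen by name: protein coding genes of the GENCODE M21 annotation whose symbol is Rpsa, or is Rpl or Rps followed by a number or by p0 to p2, with an optional letter. The annotation holds 83 such genes, and 81 of them are among the 18381 genes of the deposited count table. Rpl3l and Rpl10l are not rows of that table. Rpl39l had 12 counts over all teeth and was too low to test, so 80 genes were tested, 48 of the large subunit and 32 of the small subunit.

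The study cultured first lower molars of wild type C57BL/6JOlaHsd embryos at embryonic day 14 in hanging drops for 6 h. Of the 2 molars of each of 5 embryos, numbered 1, 2, 3, 4 and 6, one received mouse recombinant IGF1 at 750 ng/ml in PBS with BSA and the other the same volume of PBS with BSA (control), with left and right sides balanced. Each tooth was extracted on its own and gave 1 RNA sequencing library, so each group had n = 5 and each embryo gave 1 paired difference. The whole tooth was used, epithelium and mesenchyme together, and the embryos' sex is not given in the sources used here.

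The cytosolic ribosome is made of a small subunit, which decodes the mRNA, and a large subunit, which forms peptide bonds. Its proteins are produced in matched amounts, and most of their mRNAs begin with a run of pyrimidines called a terminal oligopyrimidine (TOP) tract. Through this tract, mTORC1 and the RNA-binding protein Larp1 regulate mainly how strongly these mRNAs are translated and how stable they are. Insulin-like growth factor 1 (IGF1) acts through a receptor tyrosine kinase that activates PI3K, Akt and mTORC1. Translation itself was not measured here, only the RNA of each gene.

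The start of several genes is shown first because the TOP tract lies there. RefSeq start sites (build GRCm38.p6) were matched for 63 of the 83 genes, with 75 starts in all. Each line gives 25 bases before and 25 bases from the start site on, 5′ to 3′ on the gene's strand. In the first 4, capitals mark the pyrimidine run that begins with a C at the start site.
Rps27 (chr3:90213624-90213673, minus strand): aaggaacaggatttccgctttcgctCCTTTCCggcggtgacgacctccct
Rps6 (chr4:86857343-86857392, minus strand): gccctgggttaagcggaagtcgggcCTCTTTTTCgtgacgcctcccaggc
Rpl38 (chr11:114668555-114668604, plus strand): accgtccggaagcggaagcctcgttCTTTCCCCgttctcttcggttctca
Rplp2 (chr7:141447626-141447675, plus strand): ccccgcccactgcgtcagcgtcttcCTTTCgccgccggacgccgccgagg

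A start with C followed by at least 4 pyrimidines was present at 13 of the 75 starts (17.3%), compared with 2.23% of 20150 starts of protein coding genes. A start site annotated a few bases away from the true one hides this feature, so the share is a count of these annotated starts only. The hexamer CGGAAG or its reverse complement CTTCCG, the core that ETS-type factors bind, was searched on both strands in the window from 250 bases before to 50 bases after the start. A CTTCCG hexamer can overlap a pyrimidine run. It was present in 42 of the 63 genes (66.7%), compared with 24.2% of 16522 protein coding genes with a RefSeq start. In the following 2 windows capitals mark this hexamer; they belong to Rps27l, the gene that passed the test below, and to Rpl38, whose TOP start is shown above.
Rps27l (chr9:66946061-66946110, plus strand): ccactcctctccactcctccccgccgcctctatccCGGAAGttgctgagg
Rpl38 (chr11:114668555-114668604, plus strand): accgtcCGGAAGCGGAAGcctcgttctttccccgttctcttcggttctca

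The genes lie on 19 chromosomes, with 14 on chromosome 7 and 4 on the X chromosome, and 71 of the 83 (85.5%) have no other such gene within 500 kb. Ribosomal protein genes often carry small nucleolar RNA (snoRNA) genes in their introns. Such a gene lies within 30 of the 83 (36.1%), compared with 1.18% of 22028 protein coding genes, and Rpl4 holds 5 of them.

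Libraries held 2845773 to 8403151 counts in the control teeth and 3456634 to 8763113 in the IGF1 teeth, and embryo 1 had the shallowest library of each group. Of the 80 genes tested, 79 had at least 100 counts in every tooth. The 81 ribosomal protein genes took 3.39, 3.29, 3.71, 3.55 and 3.92% of all counts in the control teeth of embryos 1, 2, 3, 4 and 6, and 3.13, 3.46, 3.14, 3.37 and 3.52% in their IGF1 teeth. The IGF1 tooth was below the control tooth of the same embryo in 4 embryos and above it in embryo 2, and the ranges of both groups overlap. The mean was 3.57% ± 0.252 (SD, n = 5) in control and 3.32% ± 0.181 (SD, n = 5) with IGF1, and the mean difference within embryos, -0.247 percentage points ± 0.278 (SD, n = 5), was smaller than its spread. In a whole tooth, fewer cells of a type rich in these mRNAs cannot be told apart from less of the mRNA per cell.

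**Figure D1:**
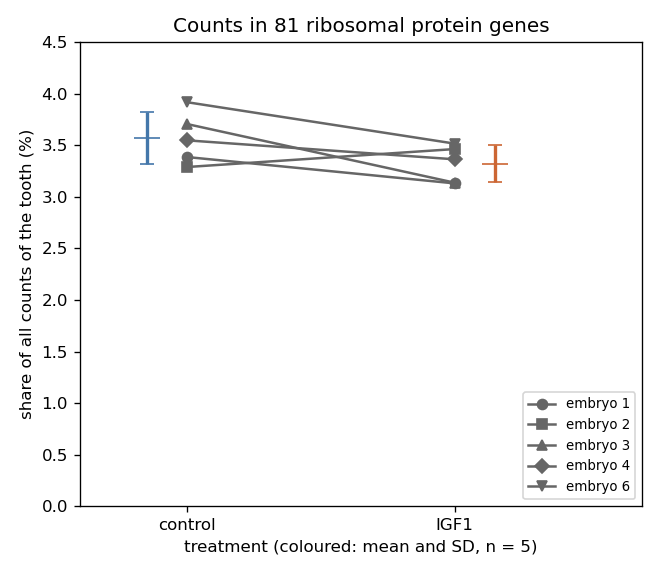
Share of each tooth's counts (vertical axis, %) that fell on the 81 ribosomal protein genes in control and IGF1 teeth. Grey lines join both teeth of an embryo and the coloured bars give the mean and SD of each group (n = 5). The lines of embryos 1, 3, 4 and 6 fall and that of embryo 2 rises, from 3.29 to 3.46%.

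Levels differed widely among the genes. Compared per kb of exon, the control means ran from 23.3 CPM per kb for Rpl7l1, a paralog of Rpl7, to 1224 CPM per kb for Rplp1, a protein of the stalk that recruits translation factors, with a median of 223 CPM per kb over the 80 genes. Rps3a1 (940 CPM per kb), Rpl23a (900 CPM per kb) and Rplp0 (815 CPM per kb) followed Rplp1. At the low end Rpl22l1 (37.4 CPM per kb) and Rps27l (45.5 CPM per kb), which are also paralogs, came next above Rpl7l1. The length used is that of all annotated exons of a gene together, so a gene with long alternative transcripts has a value that is too low.

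**Figure D2:**
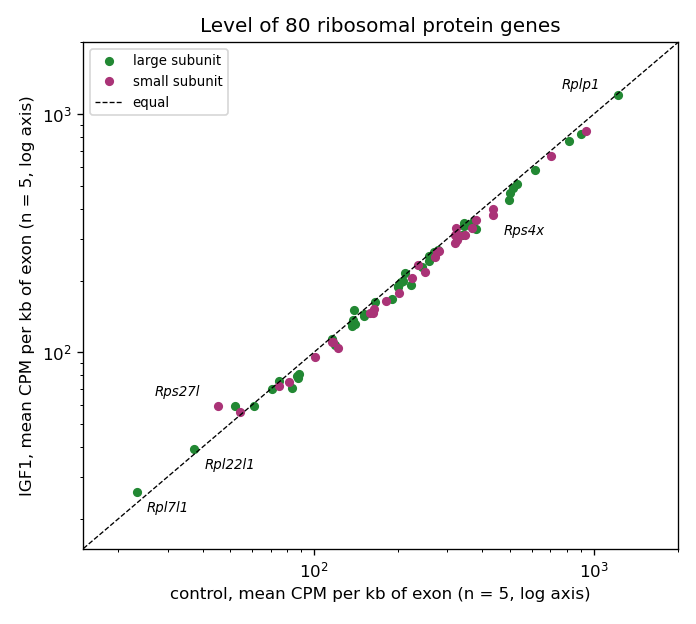
Mean level of each of the 80 ribosomal protein genes in control (horizontal axis) and IGF1 teeth (vertical axis), in CPM per kb of exon on log axes, n = 5 teeth each. Colours give the subunit and the dashed line marks equal levels; Rps27l is seen above the line, and most of the other genes lie at or just below it.

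The first comparison asks which of these genes changed with IGF1. One of the 80, Rps27l, passed the test and was higher with IGF1, and none passed as lower. Over all 14504 genes tested, 11.5% passed, 6.72% as higher and 4.76% as lower, so the ribosomal protein genes gave fewer calls than the table as a whole. Passing means an adjusted p under 0.05 in edgeR's quasi-likelihood test with the embryo as a block. Without adjustment, 10 of the 80 genes had a p under 0.05 in edgeR and were lower, and 3 were higher. Among all genes tested, 12.2% were lower and 14.3% higher in this way. The count of 10 depends on single embryos: it was 23 without embryo 2 and 3 without embryo 4. Without the embryo block it was 5. DESeq2 called 1 gene as lower, Rps4x, and limma called none.

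Rps27l encodes a paralog of the small subunit protein Rps27 and is known as a target gene of p53 (chr9:66946086-66949516, plus strand). Its level in control teeth was 28.5, 38.3, 37.9, 35.5 and 45.4 CPM (embryos 1, 2, 3, 4 and 6, the order used for all values by tooth), and in IGF1 teeth 38.6, 54.1, 53.8, 40.7 and 56.1 CPM. The IGF1 tooth was the higher one in 5 of 5 embryos, by 0.20 to 0.51 on the log2 scale, although the groups overlap between embryos. The fitted log2 fold change was 0.39 (SE 0.083, 95% interval 0.20 to 0.57), with an adjusted p of 0.0133 in edgeR. Without the embryo block the same fold change had an adjusted p of 0.126.

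Rps27 itself, which differs from Rps27l by a few residues, had a fitted log2 fold change of -0.13 (SE 0.078, adjusted p = 0.330 in edgeR). In control teeth it was at 212, 284, 234, 202 and 238 CPM, and in IGF1 teeth at 191, 220, 256, 196 and 205 CPM. It was lower with IGF1 in every embryo but embryo 3. Rps27l therefore amounted to 13.5 to 19.1% of the Rps27 level in control teeth and to 20.2 to 27.3% in IGF1 teeth, 2 ranges of CPM ratios that do not overlap. Among all genes tested, the levels of 7.25% did not overlap between the groups, and no such share was computed for ratios. The log2 ratio of Rps27l to Rps27 was higher with IGF1 in 5 of 5 embryos, by 0.52 on average (SD 0.24), with p = 0.0625 in an exact two-sided sign-flip test over embryos, the smallest value that 5 pairs allow. Reads shared by such close copies may have been split between them by the counting.

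**Figure D3:**
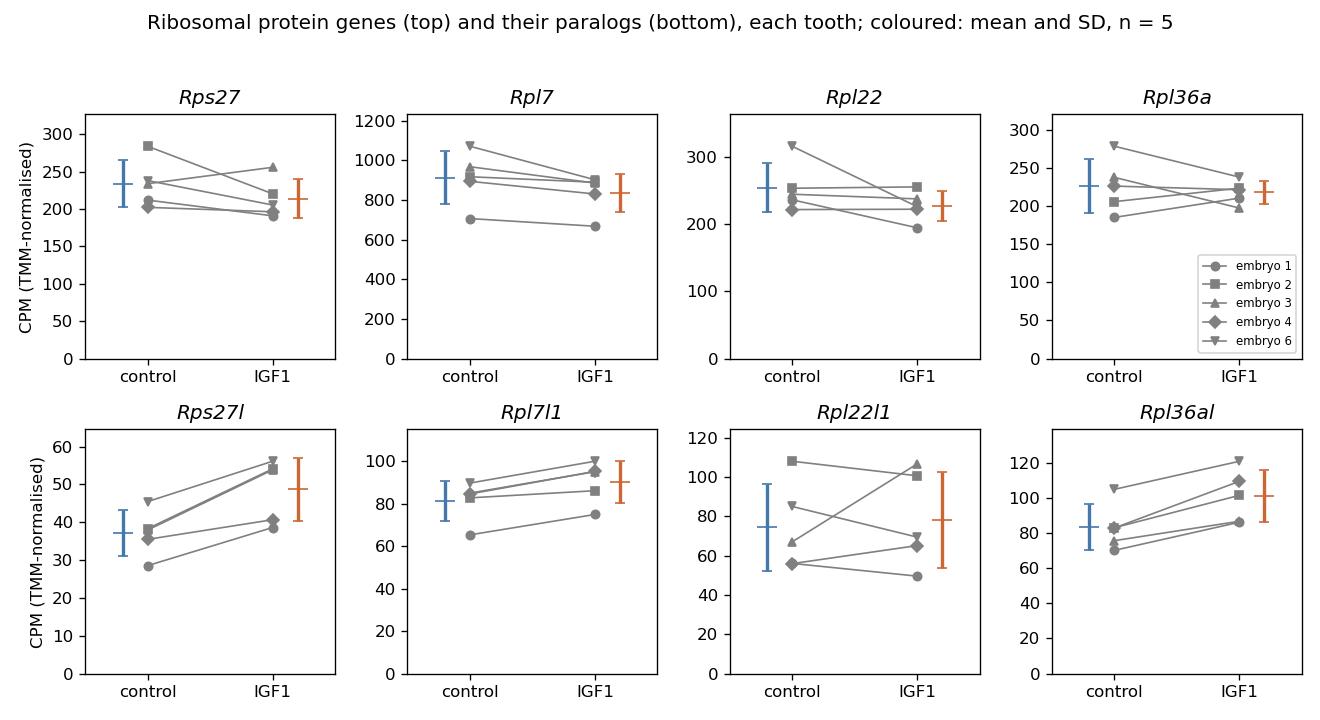
Level in CPM (vertical axes, each from 0) of 4 ribosomal protein genes (top row) and of a paralog of each (bottom row) in every tooth. Grey lines join both teeth of an embryo, and coloured bars give the mean and SD of the group (n = 5). Rps27l, Rpl7l1 and Rpl36al rise in all 5 embryos, and Rpl22l1 does not.

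In this way 4 paralog pairs were compared, and the paralog gained relative to its partner in all embryos in 3 of them. Among single genes tested, 13% were higher in all 5 embryos, and no such share was computed for ratios. A lower partner also raises a ratio. The partners Rps27, Rpl7, Rpl36a and Rpl22 had fitted values of -0.13, -0.12, -0.05 and -0.16. For Rpl7l1 over Rpl7 the log2 ratio was higher with IGF1 by 0.27 on average (SD 0.11, higher in 5 of 5 embryos, exact p = 0.0625). For Rpl36al over Rpl36a it was higher by 0.32 (SD 0.17, 5 of 5 embryos, exact p = 0.0625). For Rpl22l1 over Rpl22 it was higher by 0.22 (SD 0.30, 4 of 5 embryos, exact p = 0.1875). With 5 embryos this test cannot reach 0.05, so no pair could have passed; adjusted over the 4 pairs, 0.0625 becomes 0.0833.

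Of these paralogs, Rpl36al, whose symbol falls outside the naming rule, passed edgeR's test by itself. It was at 70.1, 83.0, 75.6, 82.8 and 105 CPM in control teeth and at 86.1, 101, 86.7, 109 and 121 CPM in IGF1 teeth, a fitted log2 fold change of 0.28 (SE 0.068, adjusted p = 0.0249). Every IGF1 tooth was above the control tooth of its embryo, and the groups overlap. Rpl7l1, which is located mainly in the nucleolus, was at 65.3, 82.7, 84.9, 84.5 and 89.7 CPM in control and at 74.9, 86.1, 95.03, 95.1 and 99.9 CPM with IGF1. Its fitted log2 fold change was 0.15 (SE 0.066, adjusted p = 0.187 in edgeR), higher in 5 of 5 embryos. Rpl22l1 varied more between teeth, from 55.9 to 108 CPM in control and from 49.5 to 107 CPM with IGF1, with a fitted log2 fold change of 0.08 (SE 0.13, adjusted p = 0.750 in edgeR).

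For the counts as assigned to each gene, the tests were precise enough to bound the changes of nearly all of the genes. The intervals do not cover how reads were shared with pseudogene copies. Adding the pseudogene counts moved Rpl21 outside its interval of -0.39 to -0.07. The 95% interval of the fold change had a median half-width of 0.17 on the log2 scale, and for 79 of the 80 genes it lay within -0.5 to 0.5, a 1.41-fold change in either direction. Rps27l was the exception. These intervals are not adjusted for the number of genes tested: those of 13 of the 80 genes exclude 0, and 1 of the 13 passed the test.

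**Figure D4:**
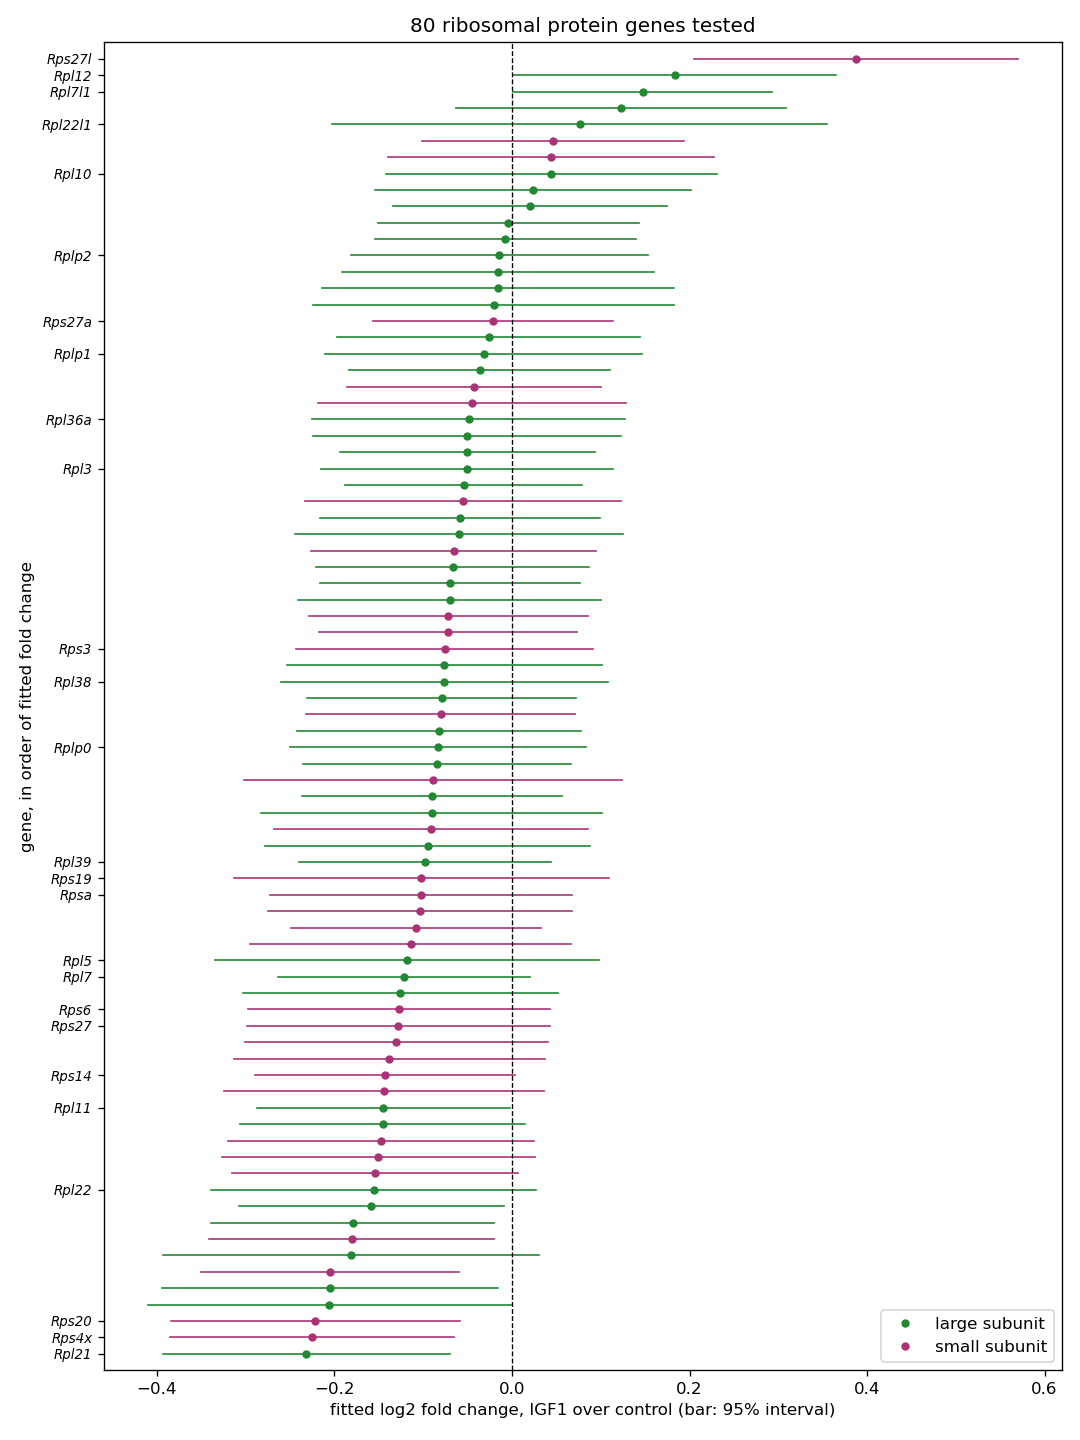
Fitted log2 fold change of IGF1 over control (horizontal axis) with its 95% interval for each of the 80 ribosomal protein genes tested, in order, with the names of 26 of them. Colours give the subunit and the dashed line marks no difference. The points of 70 genes lie below 0, and Rps27l, at 0.39, lies above all others.

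Most fitted changes were small and negative. Of the 80 genes, 70 had a fitted log2 fold change below 0, compared with 50.6% of all genes tested, and their median was -0.08, compared with -0.0038 over all genes tested. Other genes with a level above the lowest few of these 80, with no upper limit, were 933 in number and had a median of -0.02. The median was -0.07 over the 48 large subunit genes, 41 of them below 0, and -0.10 over the 32 small subunit genes, 29 of them below 0. It was -0.08 for the 13 genes with a TOP start and also -0.08 for the 47 tested genes whose matched starts lack one. For the ETS-type hexamer, the median was -0.08 over the 41 tested genes with it and -0.06 over the 19 without.

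The direction did not hold in every embryo. The median log2 difference of the 80 genes between IGF1 and control tooth was -0.07 in embryo 1, -0.22 in embryo 3, -0.06 in embryo 4 and -0.15 in embryo 6, but 0.12 in embryo 2. In embryo 2, 66 of the 80 genes were higher in the IGF1 tooth, compared with 26, 8, 19 and 9 in embryos 1, 3, 4 and 6. Most of the genes thus differed in one direction within an embryo, and the embryos differed among themselves, with an SD of 0.13 over the 5 medians. In the control tooth of embryo 6, 59 of the 80 genes had their highest control level. In the control teeth of embryos 1 and 2, 41 and 32 had their lowest. Among the IGF1 teeth, 35 and 31 genes were highest in embryos 6 and 2, and 40 and 35 were lowest in embryos 1 and 3.

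**Figure D5:**
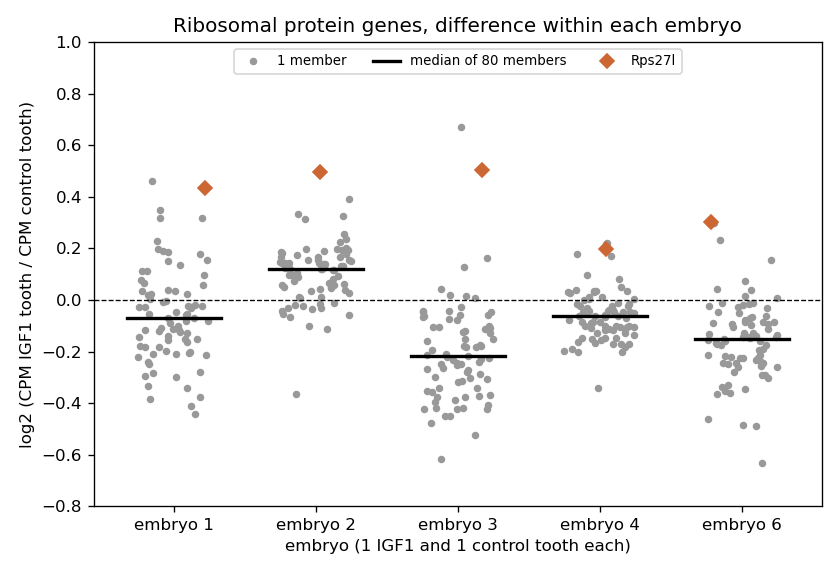
Log2 ratio of the CPM of the IGF1 tooth over the control tooth (vertical axis) in each embryo, with 1 grey point for each of the 80 ribosomal protein genes, the median as a black bar and Rps27l as an orange diamond. The medians of embryos 1, 3, 4 and 6 lie below 0 and that of embryo 2 lies above, while Rps27l is above 0 in all 5 embryos.

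Of the 80 genes, 8 were lower with IGF1 in all 5 embryos (Rpl7, Rpl11, Rpl17, Rpl21, Rpl27a, Rps4x, Rps14 and Rps26), and 2 were higher in all 5 (Rps27l and Rpl7l1). Among all genes tested, 11.2% were lower in all 5 and 13% were higher in all 5, so the share of ribosomal protein genes lower in all embryos was close to that of the table.

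Rps4x, a small subunit protein encoded on the X chromosome (chrX:102184941-102189394, minus strand), was the only one of the 80 genes whose groups did not overlap. It was at 706, 691, 724, 704 and 747 CPM in control teeth and at 519, 681, 602, 617 and 645 CPM in IGF1 teeth. All 5 IGF1 teeth were below all 5 control teeth, although in embryo 2 the log2 difference was only -0.02. The fitted log2 fold change was -0.23 (SE 0.073), and the adjusted p of 0.0725 in edgeR missed the threshold. Among all genes tested, the groups of 7.25% did not overlap, and in 3.03% the IGF1 teeth were all lower, so 1 in 80 is below that share.

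Rpl21, a large subunit protein (chr5:146832890-146837032, plus strand), had the lowest fitted value, -0.23 (SE 0.073, adjusted p = 0.0672 in edgeR). It was at 279, 264, 274, 265 and 339 CPM in control and at 229, 258, 205, 249 and 268 CPM with IGF1. The groups overlap through embryo 6, which had the highest level in both. This value depends on a copy: the pseudogene Rpl21-ps15 held 2436 counts, 12.3% of the sum of both, with a fitted value of 1.94 (SE 1.29, adjusted p = 0.382 in edgeR), and with the pseudogene counts added Rpl21 was at -0.03 (adjusted p = 0.910 in edgeR). Rps20, a small subunit protein, came next after Rpl21 and Rps4x, with -0.22 (SE 0.074, adjusted p = 0.0799 in edgeR). Its level was 444, 445, 530, 506 and 563 CPM in control and 361, 458, 403, 440 and 470 CPM with IGF1. It was lower with IGF1 in 4 embryos and slightly higher in embryo 2. When embryo 2 was left out, 5 genes passed as lower, among them Rps20, Rps4x, Rpl21 and Rpl37 with fitted log2 fold changes of -0.28 to -0.30, and the median of the 80 genes was -0.13. That is 6.25% of the 80 genes, beside 3.37% of all genes called as lower in the same fit.

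Rpl12, a protein at the base of the stalk, had the second highest fitted value, 0.18 (SE 0.082, adjusted p = 0.185 in edgeR). It was at 173, 168, 205, 201 and 191 CPM in control and 216, 209, 181, 227 and 234 CPM with IGF1. It was higher with IGF1 in 4 of 5 embryos and lower in embryo 3. Without embryo 3 it was called as higher (log2 fold change 0.27, adjusted p = 0.0262 in edgeR).

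The stalk proteins Rplp0, Rplp1 and Rplp2 did not pass the test, with fitted log2 fold changes of -0.08 (SE 0.076), -0.03 (SE 0.081) and -0.01 (SE 0.076). Rplp0 had the highest CPM of all 80 genes, 1159 to 1484 CPM in control teeth and 1189 to 1352 CPM in IGF1 teeth, and the ranges overlap.

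Rps6, which is phosphorylated by S6 kinase downstream of mTORC1, was at 709, 653, 670, 659 and 759 CPM in control and at 543, 708, 617, 622 and 673 CPM with IGF1. Its level was lower with IGF1 in 4 embryos and higher in embryo 2, and the fitted log2 fold change was -0.13 (SE 0.077, adjusted p = 0.332 in edgeR). Rps3, which lines the mRNA entry channel, had a fitted value of -0.08 (SE 0.076). Rps19 and Rps14, which are known from inherited and acquired anemias, had fitted values of -0.10 (SE 0.096) and -0.14 (SE 0.066). Rpsa, which is also described as a laminin receptor, had -0.10 (SE 0.077). None of these passed the test.

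Rpl5 and Rpl11 form a particle with 5S rRNA that can bind and inhibit Mdm2, the ubiquitin ligase of p53. Rpl11 was at 319, 298, 316, 310 and 359 CPM in control and at 274, 296, 279, 296 and 303 CPM with IGF1, lower in 5 of 5 embryos, with a fitted log2 fold change of -0.14 (SE 0.064, adjusted p = 0.181 in edgeR). Rpl5 had a fitted value of -0.12 (SE 0.098, adjusted p = 0.494 in edgeR), which came from embryo 6, where the log2 difference was -0.63, compared with -0.03 to 0.05 in the other embryos. Without embryo 6 its fitted value was 0.01.

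Rpl38, known for its part in the translation of Hox mRNAs, had a fitted log2 fold change of -0.08 (SE 0.084), and Rps27a, made as a fusion with ubiquitin, had -0.02 (SE 0.061). Rpl3, which lies close to the peptidyl transferase centre, had -0.05 (SE 0.075), and Rpl39, in the exit tunnel, had -0.10 (SE 0.065). Rpl7 had -0.12 (SE 0.064) and Rpl22 had -0.16 (SE 0.083). Rpl10, which takes part in joining the subunits, had 0.04 (SE 0.085), and Rpl36a had -0.05 (SE 0.080). All of their adjusted p-values were above the threshold in edgeR.

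Copies of these genes elsewhere in the genome limit what the counts of some of them mean. The table held 98 rows named as pseudogenes of 45 of the genes, 36 of these rows were tested, and none passed the test. Rpl10-ps3 held 22029 counts, 42.0% of the sum of Rpl10 and this copy. Rpl9-ps6 (43.7%) and Rps13-ps1 (42.7%) stood in a like ratio to Rpl9 and Rps13. Copies of Rps26 (28.4%), Rpl28 (21.9%), Rpl15 (21.6%) and Rpl14 (21.1%) also took a large part, and 14 of the genes had a copy with at least 1000 counts. The levels of these 14 genes, which include Rpl21, are therefore uncertain. So is the fold change of a gene whose copy had a very different fitted value, as for Rpl21. Rpl28-ps1 was at -0.77 (SE 0.46), beside -0.06 for Rpl28. Rpl15-ps3 was at -1.15 (SE 1.39), beside -0.0042 for Rpl15. When the copies were added to their parent genes, Rps27l remained the only gene to pass and 71 of the 80 fitted values were below 0.

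Lists of genes that share the pathway with the ribosomal proteins are read against the 11.5% of all genes tested that passed. Of all genes tested, 6.72% passed as higher and 4.76% as lower. Of 18 translation factors and other genes known for TOP mRNAs, 1 passed as lower and none as higher, with a median log2 fold change of -0.11 and 15 fitted values below 0. The gene that fell was Pabpc1, the poly(A)-binding protein, from 917, 603, 598, 699 and 576 CPM in control to 628, 562, 577, 506 and 467 CPM with IGF1 (log2 fold change -0.29, SE 0.084, adjusted p = 0.0462 in edgeR). Eef1a1, which brings aminoacyl-tRNA to the ribosome, had -0.10 (SE 0.078, adjusted p = 0.445 in edgeR) at 5993 to 7026 CPM in control and 5897 to 6566 CPM with IGF1. Fau and Rack1, proteins of the ribosome outside the naming rule, had fitted values of -0.0028 (SE 0.084) and -0.04 (SE 0.072), and did not pass. Rps27rt, a retrogene of Rps27, was between 0 and 17.9 CPM over all teeth and had a fitted value of 0.38 (SE 0.57).

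Of 17 regulators of ribosomal protein production, 2 rose and none fell, beside 6.72% of all genes called as higher. They were Rps6ka1, a kinase that phosphorylates Rps6 downstream of ERK (log2 fold change 0.43, SE 0.077, adjusted p = 0.00506 in edgeR), and Larp4, an RNA-binding protein that stabilises mRNAs (0.35, SE 0.084, adjusted p = 0.0221 in edgeR). Of 15 chaperones and importers of ribosomal proteins, 2 rose and none fell, beside the same 6.72%. These were the import receptors Ipo5 (0.33, SE 0.083, adjusted p = 0.0265 in edgeR) and Ipo7 (0.26, SE 0.064, adjusted p = 0.0259 in edgeR). All 4 genes were higher with IGF1 in 5 of 5 embryos, as were 13% of all genes tested.

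The proteins of the mitochondrial ribosome, also encoded in the nucleus, are the set most like the cytosolic ones in kind. Of 78 tested, 2 rose and none fell (Mrpl49, log2 fold change 0.38, SE 0.087, adjusted p = 0.0194, and Mrps27, 0.45, SE 0.12, adjusted p = 0.0351, both in edgeR). That is a smaller share than the 6.72% of all genes called as higher. The median of the 78 was 0.05, with 31 of 78 fitted values below 0, beside the -0.08 and 70 of 80 of the cytosolic set. Whether the sets differ was not tested.

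Because Rps27l is a known p53 target, 14 other such targets were listed beside it. One, Ccng1, a cyclin of the p53 response, rose (log2 fold change 0.60, SE 0.15, adjusted p = 0.0244 in edgeR), and the median of the 14 was 0.27. This is 1 of 14, near the 6.72% of all genes called as higher. Ccng1 was at 65.3, 90.9, 77.5, 99.3 and 67.7 CPM in control and at 90.7, 178, 174, 97.0 and 88.5 CPM with IGF1, higher in 4 embryos and slightly lower in embryo 4. Across the 14 genes, 13 were higher with IGF1 in embryo 2 and in embryo 3, 13 were lower in embryo 4, and 7 and 9 were higher in embryos 1 and 6. Cdkn1a (0.37, SE 0.26, adjusted p = 0.402 in edgeR) and Mdm2 (-0.06, SE 0.12, adjusted p = 0.774 in edgeR) did not pass. Gtse1 (0.26, SE 0.10, adjusted p = 0.134 in edgeR) was the target of the list that was higher in all 5 embryos, as Rps27l was. Whether Rps27l moved with these targets was not tested.

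Of 9 red blood cell markers tested, 6 globin genes fell, more than the 4.76% of all genes called as lower. Over the 9 the median was -0.52 on the log2 scale. One of the 9 went the other way, with a fitted value of 0.95, and did not pass. The summed level of the list was 866 to 1451 CPM in control and 616 to 1127 CPM with IGF1. Of 12 markers of mesenchyme, 3 fell (Pdgfra, Pdgfrb and Vim). The median of the 12 was -0.11 on the log2 scale, with 9 fitted values below 0. Lum (0.22), Col1a1 (0.14) and Col1a2 (0.10) were fitted above 0 and did not pass. The summed level of this list was 7838 to 10005 CPM in control and 7159 to 9888 CPM with IGF1. Of 12 epithelial markers, 1 rose (Krt5), beside 6.72% of all genes, and none fell. The median of these 12 was 0.11 on the log2 scale. Of their fitted values, 7 were above 0 and 5 below, the lowest being Krt18 at -0.28. The summed level of the epithelial list was 1916 to 2726 CPM in control and 2169 to 2955 CPM with IGF1. One of 8 macrophage markers (Csf1r) and 1 of 8 endothelial markers (Cdh5) fell, while of the glial and the muscle markers 2 each were high enough to test and none passed. No listed marker had a group mean of 0. Their summed levels were 84.7 to 112 and 69.8 to 108 CPM (macrophage), 393 to 449 and 315 to 415 CPM (endothelium), 73.8 to 96.5 and 69.8 to 80.8 CPM (glia) and 8.18 to 20.6 and 6.66 to 41.5 CPM (muscle) in control and IGF1 teeth. The share of counts from the mitochondrial genome was 2.70% ± 0.427 (SD, n = 5) in control and 2.18% ± 0.190 (SD, n = 5) with IGF1. Their part in the values of the ribosomal protein genes was not tested.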

How the data were processed

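RNA of 10 molars was sequenced (Ovation Mouse RNAseq System). Per the labels, reads were checked with FastQC 0.11.8, trimmed with Trimmomatic 0.39 and quantified with Salmon 0.99.0 on GRCm38; DESeq2 is also listed in the submitters' processing notes, and further settings are not given in the sources used here. The deposited values are estimated counts per Ensembl gene, already whole numbers, and every row sums to at least 10. Salmon shares reads among similar transcripts, which affects paralogs and pseudogenes.

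Identifiers were matched to GENCODE M21 (18287 of 18381). Counts were analysed in R 4.3.3 with edgeR 4.0.16: filterByExpr, TMM factors, the quasi-likelihood test with the embryo as a block, Benjamini-Hochberg adjustment over all 14504 genes tested, and a threshold of 0.05. CPM are TMM-normalised. The pairing comes from the labels, since both teeth of a pair are from 1 embryo, and deviations of same-embryo teeth correlated at 0.36, 0.25, -0.03, 0.21 and 0.35, compared with a median of -0.06 between embryos. Alternatives were other scalings, DESeq2 1.42.0, limma 3.58.1, other filters, no block, each embryo left out, pseudogenes added, and a trend on length, GC and level removed; leaving embryos out of the share was added after seeing the data.

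The ribosomal protein genes and all gene lists were chosen with earlier results of these data known. The genes named are those past the threshold, the 3 highest and 3 lowest fitted values, a set with roles of their own, and paralog pairs; from other lists, the genes past the threshold. Rps26, Rpl37, the genes lower in all embryos, Rps3a1, Rpl23a and the non-called genes of other lists were named after their values were seen. Some genes of these lists are not reported here by name.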

Additional observations from a re-analysis of the deposited data

Results flagged for a closer look

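In 3 groups of 5 teeth, 1 tooth stood apart from the others (Dixon's ratio above 0.71). The control tooth of embryo 6 had 339 CPM of Rpl21, compared with 264 to 279 CPM in the other control teeth (ratio 0.806). The control tooth of embryo 1 had 65.3 CPM of Rpl7l1, compared with 82.7 to 89.7 CPM (ratio 0.714). The control tooth of embryo 2 had 942 CPM of Rpsa, compared with 1056 to 1096 CPM (ratio 0.744). In 54 groups checked, about 2.7 such teeth are expected by chance.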

How the results depend on the processing

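The median log2 fold change of the 80 ribosomal protein genes stayed below 0 under every alternative: -0.13 to -0.05 with 1 embryo left out, -0.10 with upper quartile factors, -0.08 without the replicate block, and -0.11 with the trend on length, GC and level removed. The difference in share was -0.353 to -0.167 percentage points with 1 embryo left out, -0.282 over nuclear protein coding counts and -0.259 with pseudogenes. Rps27l was called in every setting with the block (adjusted p 0.0102 to 0.0473, edgeR, DESeq2 or limma). Without the replicate block no member was called higher, with Rps27l at 0.39 (adjusted p = 0.126), and 887 genes were called over the table, compared with 1666. With 1 embryo left out, 986 to 1602 genes were called over the table, and 1 to 2 ribosomal protein genes were called higher. Calls as lower were 3 of 80 (3.75%) with upper quartile factors (Rpl21 at -0.26, Rps4x at -0.25 and Rps26), 1 with total counts only (Rps26), 1 with DESeq2 (Rps4x), and 0 to 5 with 1 embryo left out (5 without embryo 2, 6.25%). Over all genes, 5.74, 5.36, 3.98 and 3.37% were called as lower in these settings. Upper quartile factors moved the median of all genes to -0.03.

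Of 390 values of the 26 named genes under the alternatives, 8 changed sign, and none of these genes was called. With 1 embryo left out, Rplp1 ranged from -0.078 to 0.050, Rplp2 from -0.076 to 0.040, Rpl10 from -0.029 to 0.113, Rpl5 from -0.163 to 0.0071, Rpl38 from -0.13 to 0.0083, Rpl36a from -0.10 to 0.0026 and Rpl22l1 from -0.089 to 0.168. The sign changed without embryo 1 (Rplp2), embryo 2 (Rpl10), embryo 6 (Rpl5) and embryo 3 (the others, and Rplp2 again). The cause was not tested. With 5 embryos, fitted log2 fold changes as large as -0.23 (Rps4x) did not pass. With pseudogene counts added, Rpl21 went from -0.23 to -0.03.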
